A study of Mus musculus with 451 samples.

Results

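The complement genes of mouse tail tendon cells were examined as 8 genes chosen by name: C1ra, C4b, C3 and Cfb of the activation cascade, the secreted inhibitor Serping1, the membrane regulators Cd46 and Cd59a, and the fluid-phase inhibitor Clu. They are 8 of the 48795 gene symbols counted in the series, of which 25841 had at least 1 read and 10963 had at least 100. Of the 8 genes, 7 had at least 1 read and 4 had at least 100, namely Clu with 18963 reads, Serping1 with 17118, C1ra with 1104 and Cd59a with 479. The other 4 were C4b with 68 reads, C3 with 22, Cd46 with 13 and Cfb with 0. The study asked how loss of Mohawk homeobox (Mkx), a transcription factor of the tendon lineage, alters tendon cells in a model of heterotopic ossification. Single cells of 4-week-old C57BL/6 mice, either WT or Mkx-/-, were freed from the tail tendon with collagenase, captured on a Fluidigm C1 chip and sequenced one by one, with no further treatment. The series held 227 WT and 224 Mkx-/- cells. The labels tie no cell to an animal or a chip, and the part of Mkx that was deleted is not named in the sources used here. Each genotype was therefore 1 sample, no test between genotypes was possible, and genotype cannot be told apart from animal or chip. All intervals are exact, at 95%, and cover counting error only. Those on reads leave out the spread between cells. The reads carry no molecular identifiers, so copies of 1 molecule can count more than once. Intervals on reads are therefore narrower than the error of counting molecules.

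Complement is a cascade of serum proteins that marks targets for removal and can perforate membranes. In the classical pathway, the proteases C1r and C1s of the C1 complex cleave C4 and C2 to form the enzyme that splits C3, the central component of all pathways, while factor B, the product of Cfb, builds the corresponding enzyme of the alternative pathway. Host cells hold the cascade in check: C1 inhibitor, the product of Serping1, inactivates C1r and C1s, CD46 helps to degrade C3b and C4b on the membrane, CD59 blocks the last step of pore assembly, and clusterin, the product of Clu, binds the assembling pore in fluid and is also an extracellular chaperone. The liver makes most of the circulating proteins, and fibroblasts are known to make several of them locally, among them C1 inhibitor.

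The deposited values were read counts per gene and cell. Cells had a median of 51788 reads in WT and 56121 in Mkx-/-, with a range of 13076 to 335813 over all cells. Clustering without the complement genes gave 3 states. One state had the highest level of all 5 progenitor markers (TPC-like, 90 cells of each genotype), and another that of all 6 tenocyte markers (TC-like, 74 WT and 80 Mkx-/- cells). The remaining state, cluster 3 (63 WT and 54 Mkx-/- cells), was highest in both tenoblast markers, but with only 2 markers fixed for that type it was left unnamed. Levels are given as reads summed over cells and scaled to the same library size (CPM, from counts per gene over all summed reads), and ratios as log2 ratios of these sums. TC-like libraries were dominated by few genes, the 50 most abundant genes taking 45.6% of reads in WT and 38.1% in Mkx-/- against 21.2% and 20.96% in TPC-like cells, so the median gene was higher in TPC-like than in TC-like cells by 0.65 on the log2 scale in WT and 0.44 in Mkx-/-. The median gene differed between genotypes by 0.05 over all cells and by 0.20 in TC-like cells. Mkx itself was lower in the cells labelled Mkx-/- but not at 0, with 33.8 CPM (30.8 to 37.1) for WT and 15.5 CPM in those cells (13.5 to 17.7). Summed markers of leukocytes stood at 163.5 CPM in WT and 124.1 in Mkx-/-, and of Schwann cells at 147.9 and 225.3. Those of endothelium stood at 88.8 and 31.4, and of mural cells at 113.9 and 95.8. Tek held 761 of the 1210 WT and 394 of the 444 Mkx-/- endothelial reads. It was itself a leading gene of TPC-like cells, at 98.2 CPM against 12.9 in the rest, so this sum is not specific to endothelium. The part of these other cell types in the results below was not tested.

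C1ra (ENSMUSG00000055172, chromosome 6: 124462423 to 124473458, plus strand, NCBIM37) encodes a C1r protease and has 13 exons in the annotation. It was read in 35.5% of all cells, and its per-cell level ranged from 0 to 1145 CPM among WT and from 0 to 1057 CPM among Mkx-/- cells, with a median of 0 for both. The summed level was 41.01 CPM (37.7 to 44.6) for WT and 38.5 CPM (35.4 to 41.9) for Mkx-/-. The genotypes overlapped over nearly the whole range, and the log2 ratio of Mkx-/- to WT was -0.09 (-0.26 to 0.08).

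By state, C1ra was highest in cluster 3, at 77.6 CPM for WT and 105.6 for Mkx-/-, against 39.03 and 29.95 in TPC-like and 27.1 and 20.2 in TC-like cells. Cluster 3 exceeded TPC-like cells by 0.99 on the log2 scale in WT (0.70 to 1.29) and by 1.82 in Mkx-/- (1.52 to 2.12). When states were taken from 10 instead of 4 dimensions these differences were 0.79 and 0.29, so that the size in Mkx-/- depended on where the border of cluster 3 was drawn. TPC-like cells exceeded TC-like cells by 0.53 in WT and 0.57 in Mkx-/-, close to the shift of the median gene, and without the 50 most abundant genes in the library size these values were -0.01 and 0.21. The share of cells with a C1ra read in cluster 3 was 38.1% for WT (26.1% to 51.2%) and 53.7% for Mkx-/- (39.6% to 67.4%), and with every cell thinned to 20000 reads it was 34.4% and 39.2%. These shares overlapped, and those of TPC-like and TC-like cells lay between 27.8% and 35.6%.

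Between genotypes, C1ra was higher in the Mkx-/- cells of cluster 3 by 0.44 on the log2 scale (0.18 to 0.71), and lower in TPC-like cells, at -0.38 (-0.71 to -0.06), and in TC-like cells, at -0.42 (-0.75 to -0.09). With states from 10 dimensions the ratio was -0.24 in cluster 3 and 0.25 in TPC-like cells, so neither direction held under that choice. C1ra has a near copy, C1rb, 97.97% identical over 2170 bases. In GENCODE M1, which need not be the annotation that was counted, both share 29 exon bases on the same strand. C1rb was read at 8.10 CPM over all cells, and 79 of the 85 cells with a C1rb read also had a C1ra read, so how the reads were divided between both genes is uncertain. With both counted together the ratio in cluster 3 was 0.48.

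Complement genes are textbook targets of interferon gamma and of interleukin signals, so the start sites were searched for 5 motifs on both strands. The window ran from 250 bases before to 50 after the start (RefSeq, GRCm38.p6), and 4 of the 8 genes (C3, C1ra, Cd59a and Cd46) had one in the table. The motifs were the interferon-gamma activated site TTCNNNGAA, found in 8.30% of 32851 windows, the interferon-stimulated response element GAAANNGAA (8.56%), CCAAT (37.4%), TATAAA (13.6%) and the AP-1 site TGANTCA (7.81%). The windows of the 2 genes with at least 100 reads are printed here because each held 1 match, shown in capitals. C1ra held an interferon-gamma activated site 32 bases after the start, and Cd59a held an interferon-stimulated response element in the stretch before it. The C1ra window is chr6:124512371-124512670 and that of Cd59a is chr2:104095551-104095850, both on the plus strand.
C1ra: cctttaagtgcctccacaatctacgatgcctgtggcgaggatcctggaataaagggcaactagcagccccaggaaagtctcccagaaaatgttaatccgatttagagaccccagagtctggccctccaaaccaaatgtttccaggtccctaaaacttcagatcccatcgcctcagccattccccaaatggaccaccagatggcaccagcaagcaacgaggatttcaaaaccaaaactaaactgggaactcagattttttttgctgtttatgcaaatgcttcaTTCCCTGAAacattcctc
Cd59a: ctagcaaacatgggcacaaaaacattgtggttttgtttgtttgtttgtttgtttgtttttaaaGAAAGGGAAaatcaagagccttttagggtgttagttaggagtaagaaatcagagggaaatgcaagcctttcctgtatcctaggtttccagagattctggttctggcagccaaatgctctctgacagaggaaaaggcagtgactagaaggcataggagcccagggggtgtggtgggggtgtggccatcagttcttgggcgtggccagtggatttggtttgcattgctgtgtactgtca
Of the others, C3 held TATAAA 14 bases after its listed start, and Cd46 held the response element 3 bases after and CCAAT before it, both on the opposite strand. These letters are a description of the windows, and whether a factor binds there was not measured. A sequence for Serping1, Clu, C4b and Cfb was not used here.

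C4b (chromosome 17: 34865325 to 34880827, minus strand) encodes complement C4, whose cleavage product C4b anchors the classical C3-splitting enzyme. It had 34 reads in 3 WT cells and 34 reads in 4 Mkx-/- cells, or 2.49 and 2.404 CPM. The reads per cell were 15, 12 and 7 in WT and 25, 5, 3 and 1 in Mkx-/-. The 3 cells with the most reads each also had a read of Ptprc, the pan-leukocyte antigen CD45, or of Csf1r, the receptor of macrophages, and together they held 52 of the 68 reads. The Mkx-/- cell with 25 reads was TC-like and had 13 Ptprc reads, the WT cell with 15 was in cluster 3 and had 21 Csf1r reads, and the WT cell with 12 was TC-like and had 9 Csf1r reads. Each of these 3 cells carried 1 of the 10 leukocyte markers, and each also had Clu, Serping1 and Col1a1 reads. No cell had reads of both C4b and its neighbour C4a, which held 49 reads.

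C3 (chromosome 17: 57343397 to 57367559, minus strand) had 21 reads in 3 WT cells, as 11, 9 and 1, and 1 read in 1 Mkx-/- cell. None of these cells had immune reads and none had a C4b read. The log2 ratio was -4.45 (-9.82 to -1.81), but 20 of the 22 reads came from 2 cells. Cfb (chromosome 17: 34993319 to 34999463, minus strand) had no read in any cell, which allows a share of cells with a read of up to 0.815%. Its floor of 3 reads per genotype stands at 0.220 and 0.212 CPM for WT and Mkx-/-. In GENCODE M1, Cfb shares 2246 exon bases with the overlapping gene Gm20547, which also had 0 reads. Reads that fall in both may have been left uncounted, if the counted annotation holds this overlap.

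Serping1 (ENSMUSG00000023224, chromosome 2: 84605544 to 84615601, minus strand, 8 exons) was read in 374 cells, in all 3 states. The share of cells with a read was 77.5% (71.5% to 82.8%) in WT and 88.4% (83.5% to 92.3%) in Mkx-/-. Its summed level was 534 CPM (522 to 547) for WT and 695 CPM (682 to 709) for Mkx-/-, a log2 ratio of 0.38 (0.34 to 0.42). Per cell the level ran from 0 over a median of 384 to 6801 CPM in WT and from 0 over 501 to 3678 CPM in Mkx-/-. The ranges overlapped almost fully, and the highest cell was WT.

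Cluster 3 had the highest Serping1 level in both genotypes, with 1004 and 1253 CPM for WT and Mkx-/-, and per-cell medians of 684 and 959 CPM. TPC-like cells stood at 542 and 611 CPM, with medians of 416 and 411, and TC-like cells at 331 and 553 CPM, with medians of 83.2 and 418. Cluster 3 exceeded TPC-like cells by 0.89 in WT and 1.04 in Mkx-/- on the log2 scale, and over the alternatives by 0.64 to 0.94 and 0.87 to 1.07. The order of TPC-like over TC-like cells, at 0.71 in WT and 0.14 in Mkx-/-, was near or below the shift of the median gene and was 0.18 and -0.21 without the 50 most abundant genes in the library size.

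The difference between genotypes in Serping1 was larger in TC-like cells than in the other states, and there 47 of 74 WT cells and 73 of 80 Mkx-/- cells had a read, or 63.5% (51.5% to 74.4%) and 91.2% (82.8% to 96.4%). These WT cells were deeper, with a median of 82854 reads against 72897, and at 20000 reads per cell the shares were 55.4% and 85%. Among the TC-like cells with a read, the median level was 386 CPM in WT and 440 in Mkx-/-, so the genotypes differed more in the number of cells with a read than in the level among them. The 27 WT cells without a read had a median of 79258 reads, near the 83342 of the WT cells with one. The log2 ratio over the TC-like sums was 0.74 (0.66 to 0.82), 0.54 relative to the median gene, and 0.54 to 0.85 over all alternatives. In TPC-like cells the ratio was 0.17 (0.09 to 0.25) and the shares were 84.4% in WT and 83.3% in Mkx-/-. In cluster 3 the ratio was 0.32 (0.24 to 0.39), with shares of 84.1% and 92.6%. Whether the states differ in this ratio was not tested.

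**Figure D1:**
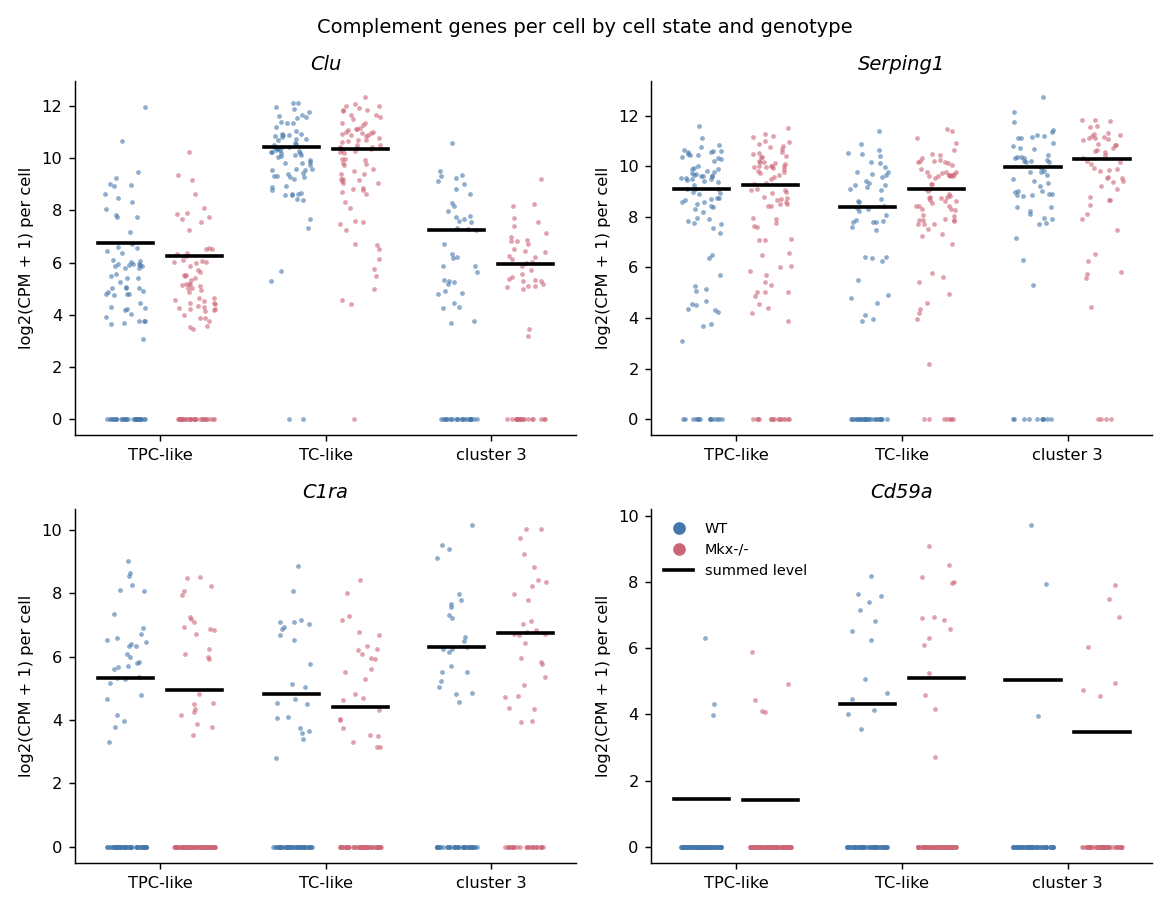
Level of Clu, Serping1, C1ra and Cd59a in each cell, as log2 of CPM plus 1 CPM, by cell state, with 1 point per cell, WT in blue and Mkx-/- in red, and a black line at the summed level of the group. Clu lies high in TC-like cells, with per-cell medians of 1169 and 1264 CPM, Serping1 spans all states with 27 WT TC-like cells at 0, and most cells have no Cd59a read.

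Cd46 (chromosome 1: 196867479 to 196918442, minus strand), a cofactor for the degradation of C3b that in the mouse is known mainly from the testis, had 13 reads in 4 WT cells, of which 10 came from 1 TPC-like cell. No Mkx-/- cell had a read, and 0 of 224 cells allows a share of up to 1.63%. With the 0 reads of Mkx-/- set to the floor of 3, the log2 ratio of Cd46 was -2.17, and its interval reached up to -1.66. This value rests mostly on the 1 WT cell with 10 reads, so no genotype difference can be read from it.

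Cd59a (ENSMUSG00000032679, chromosome 2: 103935958 to 103955511, plus strand, 5 exons), the membrane inhibitor of the pore, was read in 47 cells. These were 8.81% (5.46% to 13.3%) of the WT and 12.1% (8.10% to 17.1%) of the Mkx-/- cells, with summed levels of 15.7 CPM (13.7 to 17.9) and 18.7 CPM (16.5 to 21.1). Per-cell levels ran from 0 to 846 CPM and from 0 to 548 CPM, with medians of 0, and the log2 ratio was 0.25 (-0.01 to 0.52). Its near copy Cd59b, 90.4% identical over 394 bases, had 3 reads.

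Cd59a was higher in TC-like than in TPC-like cells. In TC-like cells it stood at 19.05 and 33.6 CPM for WT and Mkx-/-, with a read in 18.9% and 18.8% of cells, while TPC-like cells held 8 reads in each genotype, or 1.73 and 1.69 CPM, with a read in 3.33% and 5.56% of cells. TPC-like cells were lower than TC-like cells by 3.46 (2.43 to 4.70) on the log2 scale in WT and by 4.31 (3.31 to 5.54) in Mkx-/-. Between genotypes, TC-like cells gave a log2 ratio of 0.82 (0.49 to 1.15) at nearly equal shares of cells with a read. In cluster 3 a read was found in 4.76% (0.99% to 13.3%) and 12.96% (5.37% to 24.9%) of cells. The level there was 31.9 CPM for WT, above that of WT TC-like cells, and 10.04 CPM for Mkx-/-, but 75 of the 85 WT reads came from 1 cell, and without the top cell the log2 ratio turned from -1.67 to 0.67.

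That cell also held 21 Csf1r reads. Pooled over states, Cd59a was higher in the cells with immune reads in both genotypes. A read of Ptprc, Csf1r or C1qa, the last a chain of C1q made by macrophages, was found in 17 WT and 8 Mkx-/- cells. In WT, 8 of the 17 cells with immune reads had Cd59a reads (47.1%), against 12 of the other 210 (5.71%), and the levels were 89.9 and 7.64 CPM. In Mkx-/-, 3 of 8 cells with immune reads (37.5%) and 24 of the others (11.1%) had a read, at 34.1 and 17.6 CPM. The cells with immune reads were deeper, with medians of 67282 reads in WT and 78166.5 in Mkx-/-, and 4 of the 8 Mkx-/- cells were TC-like. Within states, WT cells with immune reads were higher in each, with 18.7 against 0.236 CPM in TPC-like, 61.2 against 14.6 in TC-like and 213.7 against 3.89 in cluster 3 cells, the last resting on the cell with 75 reads. In Mkx-/- this held in TC-like cells, with 42.5 against 32.4 CPM, while the 3 TPC-like cells and 1 cell of cluster 3 with immune reads had no Cd59a read. The part of depth and state in the pooled values was not tested.

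With the cells with immune reads set apart, the log2 ratio of Cd59a between genotypes was 1.20 (0.85 to 1.57), past 2-fold and higher in Mkx-/-, against 0.25 with them. In TC-like cells it was 1.15 without them, with 14.6 CPM in WT and 32.4 in Mkx-/-, and the direction there held with and without these cells. In cluster 3 it was 1.38 (0.23 to 2.66), against -1.67 with them, but this rests on 34 reads, of which the 9 in WT came from 1 of 58 cells. TC-like cells were above TPC-like cells also without these cells, since TPC-like cells then stood at 0.236 CPM in WT and 1.75 in Mkx-/-.

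Pooled over states, Serping1 and Clu were lower in the cells with immune reads of both genotypes, and C1ra was lower there only in Mkx-/-. Serping1 stood at 442 CPM in WT cells with immune reads and 544 CPM in those without, and at 245 and 729 CPM in Mkx-/- cells. Clu stood at 355 and 736 CPM in WT and at 543 and 676 CPM in Mkx-/-, and C1ra at 47.97 and 40.3 CPM in WT and 8.27 and 40.8 CPM in Mkx-/-. Within states, Clu was lower in the TPC-like and TC-like cells with immune reads of both genotypes, but higher in those of cluster 3. There it stood at 210.9 against 142.7 CPM in WT and 111.5 against 60.3 CPM in Mkx-/-, the latter from 1 cell with immune reads. These sets are small, and the mix of states among them differs from that of the other cells.

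**Figure D2:**
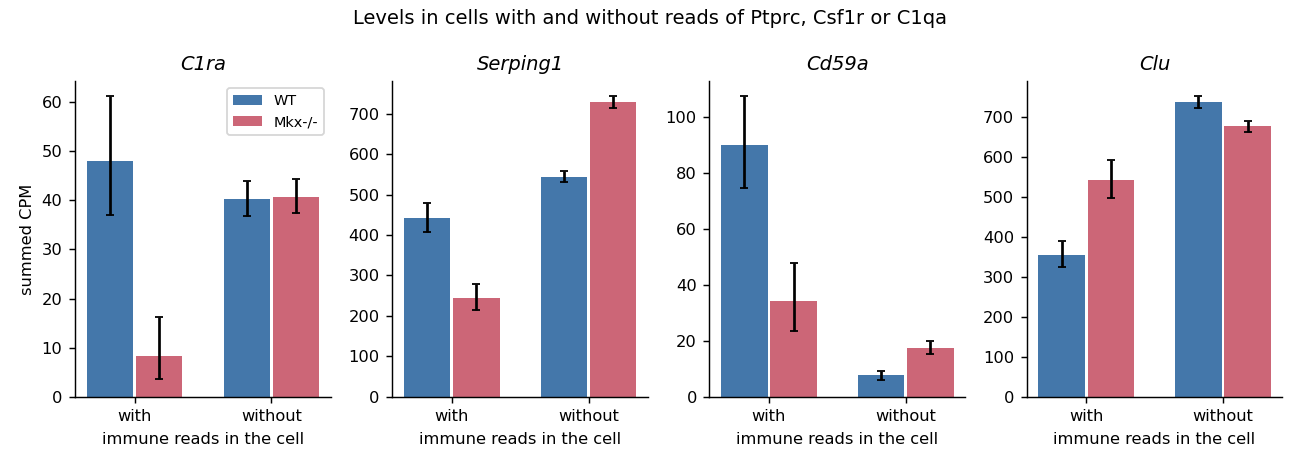
Bars of the summed level of C1ra, Serping1, Cd59a and Clu in CPM (linear axes from 0) in cells with and without a read of Ptprc, Csf1r or C1qa, WT in blue and Mkx-/- in red, with exact 95% Poisson intervals. Pooled over states, Cd59a is higher in the cells with immune reads in both genotypes, 89.9 against 7.64 CPM in WT and 34.1 against 17.6 CPM in Mkx-/-.

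As a measure of free RNA and doublets, 12 cells with reads of at least 3 of 10 leukocyte markers were examined, 9 WT and 3 Mkx-/-. All 12 had Col1a1 reads, so they were not free of tendon cell RNA, and 7 had Clu reads, 6 Serping1, 6 Cd59a and 5 C1ra. These cells are also counted in the states they are set against, so they are no independent background. In the 8 of them outside the TC-like state, with a median of 48440 reads, Clu was found in 4 cells with 1 to 4 reads (24.3 CPM), Serping1 in 5 with 1 to 43 reads (231 CPM) and C1ra in 3 with 1 to 18 reads (48.6 CPM). The summed Clu level of these cells was below the summed levels of TPC-like cells, 105.4 and 74.5 CPM, and of cluster 3, 151.8 and 60.6 CPM. It was near the per-cell medians of TPC-like cells, 26.7 and 20.6 CPM. A few Clu reads in a single TPC-like or cluster 3 cell therefore cannot be told apart from background. The TC-like level lies far above that of these 8 cells. The summed C1ra level of these 8 cells lay above that of TPC-like and TC-like cells and below the 77.6 and 105.6 CPM of cluster 3. It rests on 20 reads, however, 18 of them in 1 WT TPC-like cell that also had Col1a1 reads. This measure therefore gives no firm background level for C1ra, and C1ra in TPC-like and TC-like cells cannot be told apart from background by it. For Serping1, the share with a read in these 8 cells was 62.5% (24.5% to 91.5%). In the 4 TC-like cells of the set it was 25% (0.63% to 80.6%), at 164.8 CPM, with all 91 reads in 1 cell. Both intervals hold the share of WT TC-like cells, 63.5%, and are too wide to place it. These 4 cells are themselves WT TC-like cells, with 5683 to 13922 Col1a1 reads each, so they give no background level for Serping1. The 331 CPM of WT TC-like cells therefore cannot be placed against background by this measure. Cluster 3 stood at 1004 and 1253 CPM. Cd59a was found in all 4 TC-like cells of this set, with 8 to 14 reads, and in 2 of the other 8.

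Clu (ENSMUSG00000022037, chromosome 14: 66587320 to 66600385, plus strand, 14 exons) was higher in TC-like cells than in both other states. In TC-like cells it stood at 1360 and 1291 CPM for WT and Mkx-/-, with per-cell levels from 0 over medians of 1169 and 1264 to 4445 and 5169 CPM. TPC-like cells stood at 105.4 and 74.5 CPM, with medians of 26.7 and 20.6, and cluster 3 at 151.8 and 60.6 CPM, with medians of 28.6 and 38.4. Clu was lower in TPC-like than in TC-like cells by 3.69 (3.56 to 3.82) on the log2 scale in WT and by 4.12 (3.96 to 4.27) in Mkx-/-, against a median gene that was higher in TPC-like cells. Most TC-like cells lay above most cells of the other states, but the tails overlapped, with 1 WT TPC-like cell at 3936 CPM. A read was found in 97.3% and 98.8% of TC-like cells, in 66.7% of TPC-like cells of each genotype and in 61.9% and 64.8% of cluster 3.

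Over all cells Clu was at 699 CPM (685 to 713) for WT and 667 CPM (654 to 681) for Mkx-/-, a log2 ratio of -0.07 (-0.11 to -0.03). This sign was not stable, with 0.11 after thinning. In TC-like cells the ratio was also -0.07 (-0.12 to -0.03), and 0.09 after thinning. In TPC-like cells it was -0.50 (-0.70 to -0.30), where most cells held no more than the few reads seen in the leukocyte-marker cells. Cluster 3 gave -1.32 (-1.60 to -1.05), and -1.79 to -1.04 over the alternatives. There 16 of 63 WT cells and 2 of 54 Mkx-/- cells had at least 10 Clu reads, while the share of cells with any read and the per-cell median were higher in Mkx-/-. The summed tenocyte markers of cluster 3 were at 32016 and 45935 CPM for WT and Mkx-/-, and their part in the Clu difference was not tested.

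**Figure D3:**
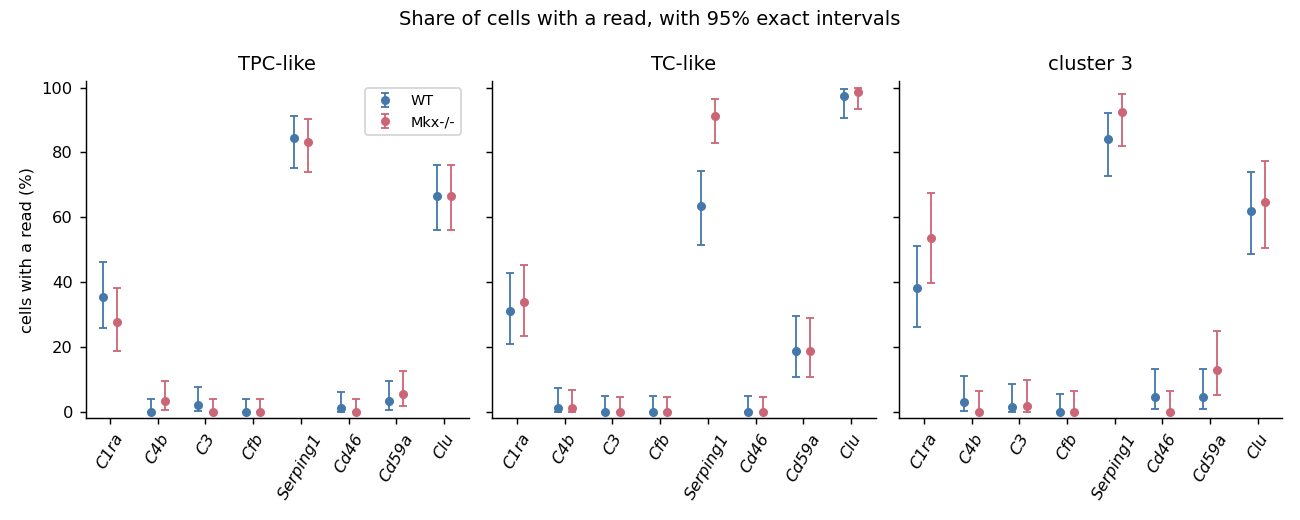
Percent of cells with at least 1 read of each of the 8 members by state and genotype, with exact 95% Clopper-Pearson intervals. Serping1 is detected in 63.5% of WT and 91.2% of Mkx-/- TC-like cells, Clu in nearly all TC-like cells, Cd59a in 18.9% and 18.8% of TC-like cells, and Cfb in none.

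A cell had reads of a median of 2 members in both genotypes, at most 5 in WT and 4 in Mkx-/-, and 8 WT and 10 Mkx-/- cells had none. At least 2 members were read in 72.2% of WT and 84.8% of Mkx-/- cells, and in 78.4% and 95% of TC-like cells, where Clu was nearly always 1 of them. All 120 TC-like cells with a Serping1 read also had a Clu read. In cluster 3, 47.6% of the cells with a Serping1 read and 28.6% of those without had a C1ra read, an association that also moves with the depth of a cell and was not tested.

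With only 3 or 4 members counted in each comparison, the counts between genotypes are given beside the shares over all genes. Over all cells, 0 of the 4 members with at least 100 reads were past 2-fold, against 13.4% of all 10963 genes, with 2 higher and 2 lower in Mkx-/- and a median log2 ratio of 0.09 beside 0.05 for all genes. In TPC-like cells, 0 of 3 were past 2-fold, with 15.8% of all genes, and in TC-like cells 0 of 4, with 20.8%. In cluster 3, 2 of 4 were past 2-fold, both lower in Mkx-/- (Clu and Cd59a), beside 20.4% of all genes, and the Cd59a value rests on 1 cell.

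Between states, a gene was counted where it was past 2-fold in the same direction in both genotypes. Of 4 members with enough reads, 2 were higher in TC-like than in TPC-like cells (Clu and Cd59a), as were 3.76% of 7563 genes, and 0 were higher in TPC-like cells, as were 15.2%. Both calls held under every alternative run. Between cluster 3 and TPC-like cells, 0 of 3 members passed in either direction, where 2.28% of genes were higher in cluster 3 and 4.35% were higher in TPC-like cells, since C1ra and Serping1 stayed just under 2-fold in WT at 0.99 and 0.89. Between cluster 3 and TC-like cells, 2 of 4 were higher in cluster 3 (C1ra and Serping1), beside 8.92% of genes, where the median gene was itself higher in cluster 3 by 0.57 in WT and 0.35 in Mkx-/-. Without the 50 most abundant genes in the library size C1ra stayed past 2-fold, at 1.03 and 2.07, while Serping1 was at 1.11 in WT and 0.86 in Mkx-/-, so its call was lost. In the other direction 1 was higher in TC-like cells (Clu), beside 3.43%. The states are clusters of the same cells, so these counts describe them and carry no test.

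**Figure D4:**
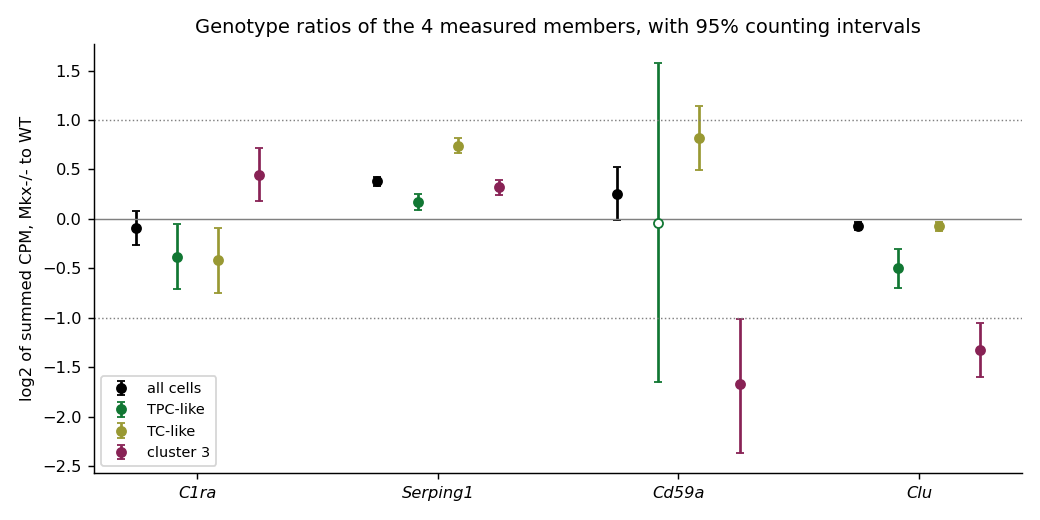
Log2 ratio of summed CPM, Mkx-/- to WT, of C1ra, Serping1, Cd59a and Clu over all cells and in each state, with exact 95% intervals for counting error, dotted lines at 2-fold and an open point where fewer than 100 reads were counted. Serping1 lies above 0 throughout with its highest value of 0.74 in TC-like cells, Cd59a and Clu lie lowest in cluster 3 at -1.67 and -1.32, and C1ra lies on both sides of 0.

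The wider complement list held 63 genes, of which 20 had at least 100 reads. Of these, 2 were higher and 3 lower in Mkx-/- by more than 2-fold, beside 13.4% of all 10963 genes in either direction. The 20 listed genes centred on a log2 ratio of 0.13 by median, beside 0.05 for all genes. C1s1, the protease that C1r activates, stood at 7.78 and 18.5 CPM for WT and Mkx-/-, a ratio of 1.25 (0.92 to 1.59), with a read in 17 and 32 cells. By state it was at 1.89 and 19.2 CPM in TC-like, 5.20 and 16.5 in TPC-like and 26.2 and 20.5 in cluster 3 cells, so the higher level was not seen in cluster 3. Cr1l, a membrane regulator of C3 convertases also called Crry, stood at 14.5 and 33.4 CPM, a ratio of 1.21 (0.96 to 1.45). It was higher in Mkx-/- in each of the 3 states, with 17.1 and 33.1 CPM in TPC-like, 12.8 and 24.01 in TC-like and 13.9 and 59.8 in cluster 3 cells.

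The 3 genes that were lower in Mkx-/- were Cpn1, Cd93 and C3ar1. Cpn1, a subunit of carboxypeptidase N that inactivates C3a and C5a, stood at 37.9 and 17.2 CPM (-1.14), with 86.1 and 31.2 CPM in TPC-like and 44.6 and 16.9 in cluster 3 cells. In TC-like cells it went the other way, with 1 WT read against 53 Mkx-/- reads, 39 of them in 1 cell. C3ar1, the receptor for C3a, stood at 8.58 and 2.404 CPM (-1.84) with reads in 8 WT and 5 Mkx-/- cells. Its WT and Mkx-/- reads numbered 59 and 14 for TPC-like and 58 and 0 for TC-like cells, but 0 and 20 in cluster 3, 18 of these in 1 cell. Cd93, an endothelial and myeloid surface receptor, stood at 19.4 and 2.26 CPM (-3.10), but 87.2% of its WT reads came from 1 cell that carried 4 endothelial and 5 mural markers. By state it had 9 and 8 reads in TPC-like, 256 and 2 in TC-like and 0 and 22 in cluster 3 cells, 21 of the last in 1 cell.

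Other complement genes differed by state. Cd55, which speeds the decay of C3 convertases, stood at 1327 and 1255 CPM in TPC-like, 138.4 and 153.1 in TC-like and 487 and 305 in cluster 3 cells. Colec10, a collectin of the lectin pathway, stood at 91.9 and 119.2 CPM in TPC-like and 8.19 and 8.97 in TC-like cells. In both genotypes, 11 listed genes had enough reads to compare TPC-like and TC-like cells. Of these, 4 were past 2-fold higher in TPC-like cells (C1qb, Colec10, Cd55 and Cpn1), beside 15.2% of 7563 genes. Another 2 were higher in TC-like cells (Cd59a and Clu), beside 3.76%. The median gene was itself higher in TPC-like cells, by 0.65 in WT and 0.44 in Mkx-/-. C1qb rested on single cells, with 58.7% and 54.03% of its reads in 1 cell.

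**Figure D5:**
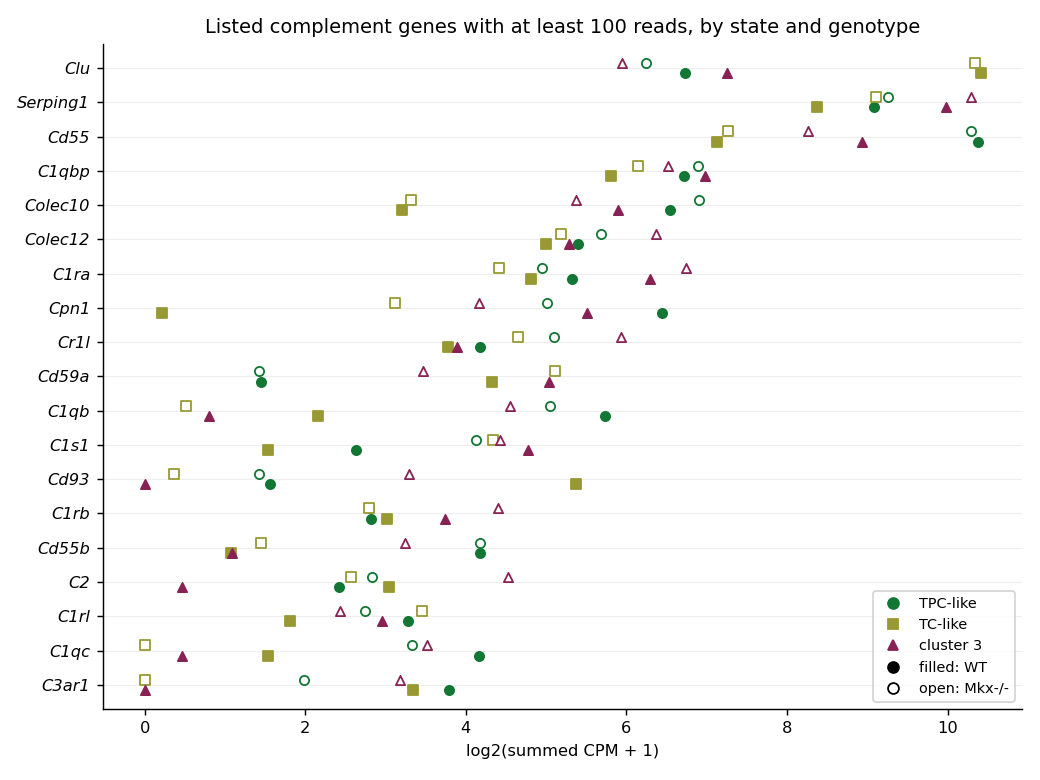
Summed level of listed complement genes with at least 100 reads, as log2 of CPM plus 1 CPM, in TPC-like cells (circles), TC-like cells (squares) and cluster 3 (triangles), with filled points for WT and open points for Mkx-/- and no error bars. Clu lies highest in TC-like cells and Cd55 and Colec10 in TPC-like cells, while C1ra lies highest in cluster 3, in both genotypes.

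Of 29 genes of the interferon, interleukin 1, interleukin 6 and tumour necrosis factor pathways, 24 had at least 100 reads. Among these 24, 2 were higher and 5 lower in Mkx-/- by more than 2-fold, beside 13.4% of all 10963 genes in either direction. The 24 genes centred on a log2 ratio of -0.13 by median, beside 0.05 for all genes. Cebpb, a transcription factor of the acute phase, stood at 76.9 and 36.8 CPM (-1.06) and was read in 65.6% and 44.2% of cells. Stat2, which carries the signal of type I interferons, stood at 15.4 and 6.43 CPM (-1.26), and the interferon-induced Gbp2 at 37.7 and 5.66 CPM (-2.74). The interferon-induced Ifit1 had 483 reads in WT, 418 of them in 1 cell, and 1 read in Mkx-/-, and Ifit3 stood at 27.1 and 2.47 CPM with 71.1% of its WT reads in 1 cell. Of the higher genes, Saa3 had 92.8% of its Mkx-/- reads in 1 cell with 7 leukocyte markers, and Cp, which encodes ceruloplasmin, stood at 8.29 and 20.7 CPM with 53.6% of its Mkx-/- reads in 1 cell. Among the receptors of this list, none was past 2-fold over all cells. By state, the interleukin 1 receptor Il1r1 had log2 ratios of Mkx-/- to WT of 1.25 (TPC-like), 1.15 (TC-like) and 0.10 (cluster 3). Ifngr1, a chain of the interferon gamma receptor, was at 1.05 in cluster 3, 0.30 (TC-like) and -0.20 (TPC-like). Of the listed genes, those past 2-fold higher and lower in Mkx-/- numbered 2 and 0 of 17 in the TPC-like state. For the TC-like state they numbered 2 and 7 of 21, and for cluster 3, 2 and 0 of 16. Beside these, 15.8%, 20.8% and 20.4% of all genes were past 2-fold in either direction, in the same order of states.

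The genes whose per-cell level was most like that of Clu, by Spearman's rho over all cells and among 5125 genes read in at least 20% of cells, were Tnmd (0.63), 1500015O10Rik (0.62) and Col1a2 (0.62). Within states these were lower, for Tnmd 0.10, 0.31 and 0.02 in TPC-like, TC-like and cluster 3 cells, so the likeness was mostly that of the states. For Serping1 they were Gsn (0.41), Myoc (0.33) and Serpine2 (0.26), and Gsn kept 0.31, 0.35 and 0.42 within the states. For C1ra they were Gsn (0.24), Mmp2 (0.23) and Ctsk (0.22). All cells of a genotype share its library preparation and differ in depth, so these values are descriptions.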

How the data were processed

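Read counts per gene and cell were used as the authors deposited them. Per the study's methods, the authors filtered reads with AfterQC, trimmed 3′ ends, placed reads on mm9 with bowtie2 and counted them with featureCounts, while the submitters' processing notes name mm10. Tool versions, strand and the handling of reads with several positions are not given in the sources used here. Gene length and unspliced placement of reads affect the counts, so levels are not compared between genes.

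Each GEO sample was 1 cell (227 WT, 224 Mkx-/-), and group labels came from the submitters. Cells had 13076 to 335813 reads, and 0 columns were left unused. No 2 cells had identical counts (highest correlation 0.71), and no doublet caller was run. Cells were clustered with Seurat 5.3.0 (R 4.3.3) by canonical correlation anchors on 1693 genes, the union of the 1000 most variable per genotype, without complement genes, in 4 dimensions at resolution 0.4. The study used an older alignment and left out some cells, so states need not match its own. States were named from markers of the study (progenitors Cd44, Thy1, Ly6a, Fstl1 and Tppp3, tenocytes Col11a2, Col1a1, Col1a2, Sparc, Tnmd and Fmod, tenoblasts Itm2a and Lgals3), which is no independent support for them.

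Counts were summed per genotype and state and scaled to CPM with Python 3.11.15 (scipy 1.17.1), with exact Poisson intervals for sums, exact conditional binomial intervals for ratios and Clopper-Pearson intervals for shares, all at 95%. A sum of 0 was set to a floor of 3 reads for a ratio. Genes needed 100 reads over both groups to be counted as past 2-fold. Cells with a read of Ptprc, Csf1r or C1qa were noted apart. Shares were also computed after thinning to 20000 reads, which 225 WT and 219 Mkx-/- cells allowed. Named genes were all members, Mkx, state markers, listed genes past 2-fold, and the 3 genes most like each member read in at least 20% of cells. Other listed genes with at least 100 reads could be named as well. The members and lists were chosen with earlier results of these data known. The scripts were tested on simulated data. Positions are from GENCODE M1 on NCBIM37, near copies from blastn 2.17.0, and start-site windows from RefSeq on GRCm38.p6. GENCODE M1 holds no C1s1, C1s2 or Cd55b under these names, though the series lists each of them. The counts therefore need not follow its exons and overlaps. Alternatives covered library size, read minimum, cells left out, thinning and clustering. A gene of the wider list is not reported here.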

Additional observations from a re-analysis of the deposited data

Results flagged for a closer look

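The log2 ratio of C1ra, Mkx-/- to WT, was 0.44 for cluster 3, -0.38 for TPC-like cells and -0.42 for TC-like cells, so that the direction differed between states. With states from 10 dimensions the cluster 3 value was -0.24 and the TPC-like value 0.25, and C1rb, the near copy, stood at 12.4 CPM in WT and 20.1 in Mkx-/- cells of cluster 3. The log2 ratio of Cd59a was 0.82 in TC-like cells and -1.67 in cluster 3. In cluster 3, 1 WT cell with 21 Csf1r reads held 75 of the 85 WT reads. Neither difference between states was tested, since each genotype was 1 sample.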

How the results depend on the processing

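No paired analysis was possible because the labels give no replicate number that links WT with Mkx-/- cells and each genotype was 1 sample. The number of members past 2-fold between genotypes, 0 as reported, was 1 with a minimum of 20 reads and 1 with no minimum and a pseudocount of 1 CPM (C3, lower in Mkx-/-), and 1 without cells with immune reads (Cd59a, higher). For the wider complement list, 5 genes as reported became 12 with a minimum of 20 reads, 10 with no minimum, and 2 where the whole interval had to lie beyond 2-fold (C3ar1 and Cd93). Fewer or more genes enter these counts by construction. The 7 genes of the inducing list ranged from 5 to 8, and the 2 members between TPC-like and TC-like cells were Clu and Cd59a under every alternative run. The log2 ratio of Cd59a in cluster 3 reversed to 1.38 without cells with immune reads and to 0.67 without the top cell of each genotype, and over all cells it ranged from -0.22 with equal weight for each state to 1.20 without cells with immune reads. For the 4 members with at least 100 reads, 49 alternative genotype ratios moved beyond their counting interval, 2 reversed and the others stayed within it. Of 68 alternative TPC-like to TC-like ratios 47 stayed within the interval and 21 moved, and of 68 cluster 3 to TPC-like ratios, added after the data were seen, 55 stayed and 13 moved, as did 44 and 24 of 68 cluster 3 to TC-like ratios, also added then. Of 96 alternative shares, 66 stayed and 30 moved. Leaving out 10 WT and 4 Mkx-/- cells with at least 3 leukocyte, endothelial or mural markers was also chosen after seeing the data. Depth limits C3, C4b, Cd46 and Cfb, for which no genotype difference can be read from so few cells.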
